A study of Mus musculus with 6 samples.

Results

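The core factors of nonsense-mediated mRNA decay are described here in the cortex of mice without HtrA2, a protease that resides between the membranes of the mitochondrion. The set consists of Upf1, Upf2, Upf3a, Upf3b, Smg1, Smg5 and Smg6, which are 7 genes. Every probe set annotated to a single gene symbol that is one of these names was taken, which gave 12 probe sets for 5 of the 7 genes, out of 45037 probe sets and 18193 named genes in all. Upf1 has 1 probe set, Upf2 2, Smg1 4, Smg5 2 and Smg6 3. No probe set was matched to Upf3a or Upf3b, whose levels were not analysed here.

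The series compared cortex of HtrA2 wild type mice (WT) with cortex of HtrA2 knockout littermates (HtrA2 KO), all at postnatal day 29 and with no treatment in the labels. There were 3 arrays per genotype, and the labels name neither the strain nor the construct of the knockout allele. Values are levels on the log2 scale from RMA, a method that corrects the background, brings the arrays to a common distribution and summarises each probe set. The tissue was bulk cortex, so a lower share of cells of a type and less RNA per cell cannot be told apart.

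Nonsense-mediated decay removes mRNAs on which a ribosome stops too early, and it also lowers some normal transcripts with upstream reading frames or an intron after the stop codon. Upf1 is the RNA helicase at its centre. Upf2 and the Upf3 proteins link Upf1 to the exon junction complex that splicing leaves on an mRNA, the kinase Smg1 phosphorylates Upf1, and Smg5 and Smg6 bind the phosphorylated form. Smg6 cuts the RNA, and Smg5 helps recruit decapping and deadenylation enzymes. The mRNAs of several of these factors are themselves substrates, which gives the pathway a feedback loop. Phosphorylation of the translation factor eIF2 is known to dampen the pathway, and several transcripts of the stress response it starts are substrates too.

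Of the 12 probe sets of the decay factors, 0 differed between the genotypes at an adjusted p under 0.05 (limma's moderated test, two-sided, Benjamini-Hochberg adjusted across the 45037 probe sets). Among all probe sets 1.77% passed. At an unadjusted p under 0.05 there was 1 decay factor probe set, against 16.9% of all probe sets. The smallest adjusted p was 0.132. Log2 fold changes, knockout minus wild type, ran from -0.38 to 0.19, with 8 estimates below 0 and 4 above. Their median was -0.02, beside a median of 0.005 over all probe sets. The median size of the change, without its sign, was 0.08 among the decay factors and 0.10 among all probe sets. The 95% interval contained 0 at 11 of 12 probe sets, and at 11 of 12 it lay wholly between -0.5 and 0.5, which is a 1.41-fold change in either direction. A smaller change in either direction remains within those intervals with 3 arrays per group. Of the 12 probe sets, 7 were dim, with a mean below the table's median of 6.42. A narrow interval there bounds a dim signal and need not bound the change of the transcript.

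**Figure D1:**
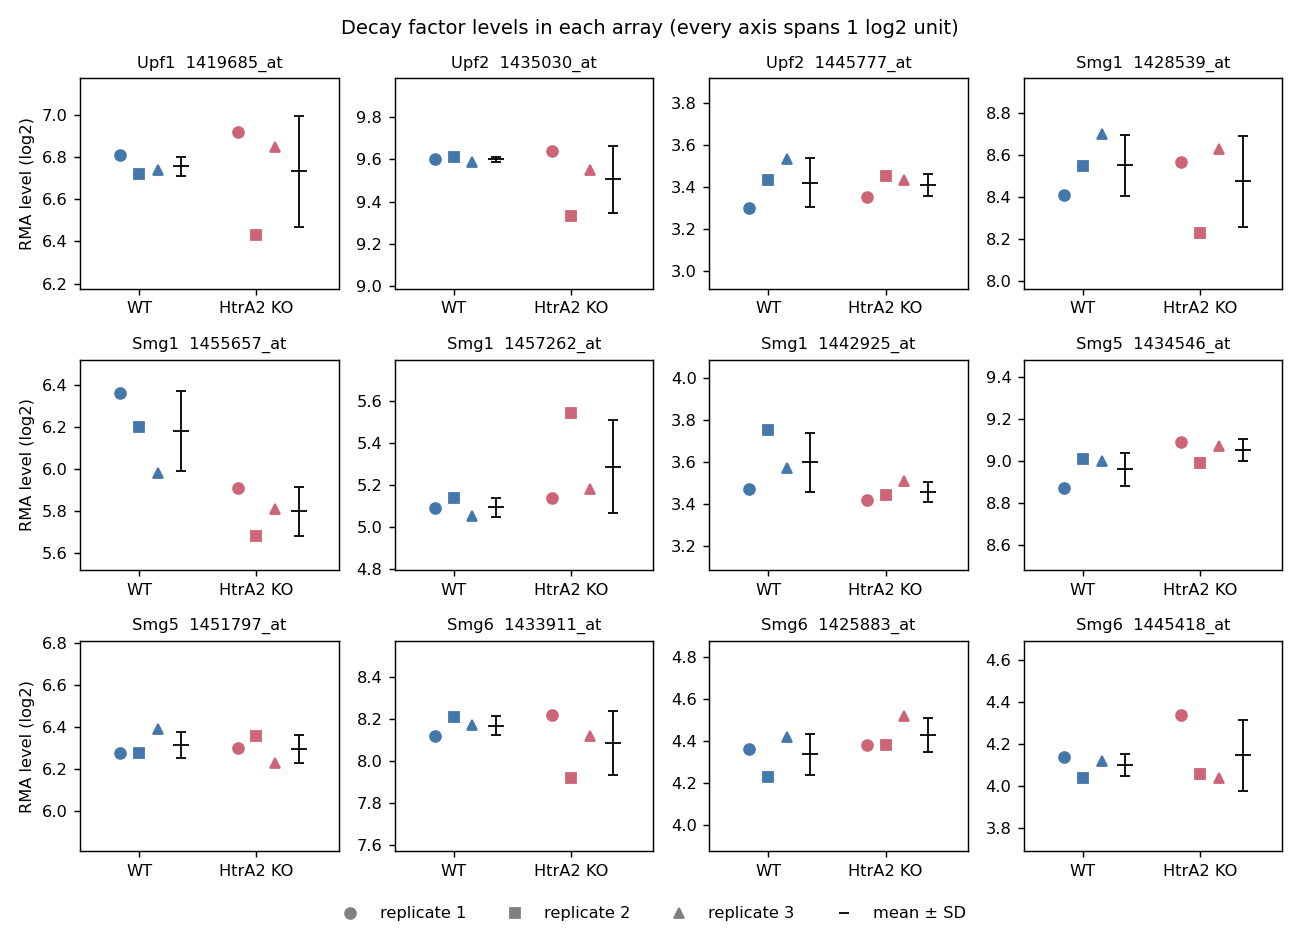
Level of each decay factor probe set in each array, in log2 units, with wild type in blue and HtrA2 knockout in red; marker shapes give the replicate, bars give the mean ± SD of 3 arrays, and every axis spans 1 log2 unit. The groups are separate only at Smg1 1455657_at. Knockout replicate 2 is the lowest array at 5 of the 12 probe sets, and at 21.2% of all probe sets.

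Upf1, the helicase, read 6.81, 6.72 and 6.74 in wild type replicates 1 to 3 and 6.92, 6.43 and 6.85 in knockout replicates 1 to 3. Knockout replicates 1 and 3 lay above every wild type array and replicate 2 lay below every one, so the groups overlapped. The change was -0.02 ± 0.13 (SE, n = 3 per group; 95% interval -0.31 to 0.27; adjusted p = 0.960). Without knockout replicate 2 it was 0.13 ± 0.07 (adjusted p = 0.308).

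Upf2, which joins Upf1 to the Upf3 proteins, was measured most brightly by 1435030_at. Wild type arrays read 9.60, 9.61 and 9.59 and knockout arrays 9.64, 9.33 and 9.55. The wild type values were nearly the same (SD 0.00978), whereas the knockout values spread more widely (SD 0.155), again with replicate 2 lowest. The change was -0.10 ± 0.09 (95% interval -0.30 to 0.11, adjusted p = 0.677), and -0.01 ± 0.07 without knockout replicate 2. The second probe set, 1445777_at, was dim, between 3.30 and 3.53 in all 6 arrays, with overlapping groups and a change of -0.01 ± 0.08.

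Smg1, the kinase, had the widest spread among the factors, with 4 probe sets whose estimates lay on both sides of 0. The brightest, 1428539_at, read 8.41, 8.55 and 8.70 in wild type and 8.57, 8.23 and 8.63 in the knockout. These ranges overlapped, and the change was -0.07 ± 0.12 (95% interval -0.36 to 0.21, adjusted p = 0.834).

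At 1455657_at, Smg1 read 6.36, 6.20 and 5.98 in wild type and 5.91, 5.68 and 5.81 in the knockout. Every knockout array was below every wild type array, the 1 decay factor probe set where the groups did not overlap, and 23.2% of all probe sets had groups apart in this way. The change was -0.38 ± 0.11 (0.766-fold, 95% interval -0.64 to -0.13), with an unadjusted p of 0.00872 and an adjusted p of 0.132, so it did not pass. The nearest arrays were wild type replicate 3 and knockout replicate 1. The adjusted p was 0.140 without knockout replicate 2, 0.394 without wild type replicate 2 and 0.0523 with array weights.

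The other pair of Smg1 probe sets were dimmer. At 1457262_at the wild type arrays read 5.09, 5.14 and 5.05 and the knockout arrays 5.14, 5.54 and 5.18. Knockout replicate 2 was the highest array here, and the change of 0.19 ± 0.11 became 0.07 ± 0.07 without it. At 1442925_at wild type replicate 2 was highest, at 3.75, in a range of 3.42 to 3.75, and the change was -0.14 ± 0.09.

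Smg5, which carries phosphorylated Upf1 back towards its resting form, read 8.87, 9.01 and 9.0 in wild type and 9.09, 8.99 and 9.07 in the knockout at 1434546_at. Knockout replicate 2 fell within the wild type range and the other knockout arrays just above it. The change was 0.09 ± 0.08 (95% interval -0.08 to 0.27, adjusted p = 0.627). The second probe set, 1451797_at, lay between 6.23 and 6.39 in every array and changed by -0.02 ± 0.07.

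Smg6, the endonuclease, read 8.12, 8.21 and 8.17 in wild type and 8.22, 7.92 and 8.12 in the knockout at its brightest probe set, 1433911_at. Knockout replicate 2 was again lowest, and the groups overlapped. The change was -0.08 ± 0.09 (95% interval -0.29 to 0.13, adjusted p = 0.744), and 0.005 without that array. Its other probe sets were dim: 1425883_at ran from 4.23 to 4.52 and changed by 0.09 ± 0.08, and 1445418_at ran from 4.04 to 4.34 and changed by 0.04 ± 0.10.

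**Figure D2:**
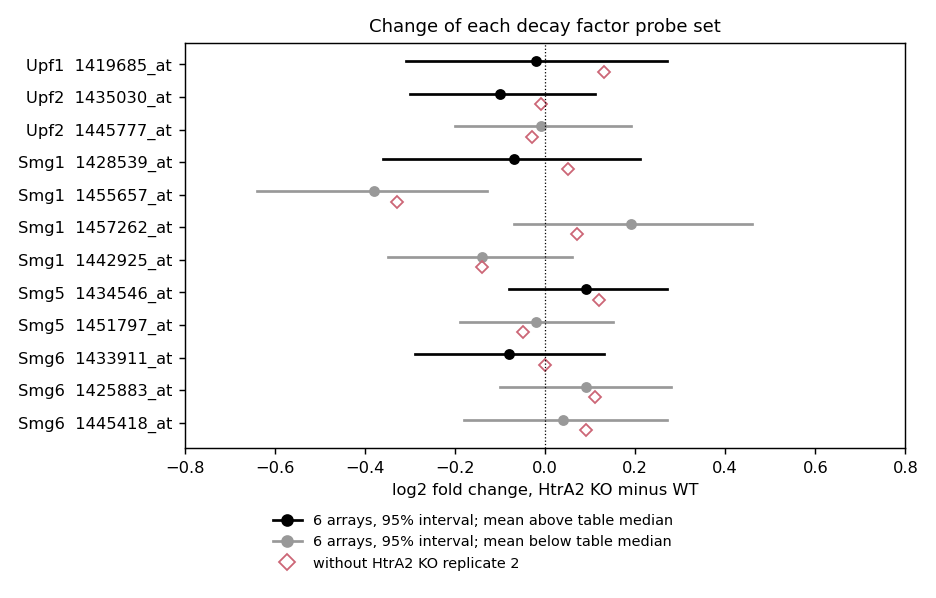
Log2 fold change of each decay factor probe set, knockout minus wild type, with its 95% interval from limma; black marks probe sets whose mean lies above the median of the table and grey those below it, and open diamonds give the fold change without knockout replicate 2. The interval excludes 0 at Smg1 1455657_at (-0.64 to -0.13, adjusted p = 0.132), and the diamonds of Upf1, Smg1 1428539_at and Smg6 1433911_at lie at 0.13, 0.05 and 0.005.

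Knockout replicate 2 stood low at the brighter probe sets. Of the 12 decay factor probe sets, 5 had a mean above the table's median of 6.42, and these were the brightest of each gene. It was the lowest of all arrays at 4 of those 5 probe sets, all but the one for Smg5, while it was lowest at 30.1% of all probe sets as bright. Their median change was -0.07 with all arrays and 0.05 without knockout replicate 2, beside -0.002 and 0.01 over all probe sets as bright. Their changes then ran from -0.01 to 0.13. Leaving out knockout replicate 2 where it was the lowest of the knockout arrays must raise the change. It was so at all 5, Smg5 included, so these rises and that of their median were fixed in advance. With that array left out 6.74% of all probe sets passed the test (3037 probe sets against 796), but still 0 of the 12 decay factor probe sets did.

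Probe sets of the same gene can read different ends or parts of its transcripts. Whether they responded differently was tested on the difference between each probe set and the brightest one of its gene, fitted over all 16752 such differences. Of 7 differences within Upf2, Smg1, Smg5 and Smg6, 0 passed at an adjusted p under 0.05 in limma, where 0.167% of all differences passed. At an unadjusted p under 0.05 there were also 0 of the 7, and the share of all differences at that threshold is not reported here. Smg1 1455657_at against 1428539_at gave the most negative, -0.31 ± 0.17 (95% interval -0.70 to 0.08, adjusted p = 0.527). Smg1 1457262_at against the same probe set gave the most positive, 0.27 ± 0.21 (95% interval -0.21 to 0.74, adjusted p = 0.675). Smg1 1455657_at and 1457262_at were each compared only with 1428539_at, and their difference from each other was not tested. The position of the probes on the transcripts was not analysed here.

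By Pearson correlation over the 6 arrays, the probe set most like Upf1 was one of Tnpo3 (r = 0.9991), and for Upf2 it was Usp53 (r = 0.9983). For the brightest probe sets of Smg1, Smg5 and Smg6 they were Ube4b (0.9994), C1qtnf1 (0.9892) and Ficd (0.9955). Each is the highest of at least 34941 probe sets compared across only 6 arrays. The shared feature for Upf1, Upf2, Smg1 and Smg6 is a low knockout replicate 2: Tnpo3 read 8.0 there and 8.28 to 8.49 elsewhere, and Usp53 read 8.26 there and 8.61 to 8.73 elsewhere.

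All 5 measured markers of cortical excitatory neurons were above the table's median. Their mean level was 10.66 to 10.72 in wild type and 10.32 to 10.45 in the knockout. Markers of meninges (5 of 5), choroid plexus (2 of 4) and striatum (2 of 3) were above that median too, so this count alone does not set cortex apart. The 4 choroid plexus markers averaged 6.55 to 8.29 in wild type and 6.26 to 6.50 in the knockout, and among them Ttr stood at 12.86 in wild type replicate 2 and at 7.32 to 8.62 in the other arrays. Without wild type replicate 2 no decay factor probe set passed either, and the 5 brighter changes ran from -0.09 to 0.12. Its part in the decay factor values was otherwise not tested. Group ranges of the marker means were also apart for neurons (4 genes, 12.67 to 12.70 in wild type and 12.46 to 12.55 in the knockout), oligodendrocytes (3 genes, 11.55 to 11.69 and 11.29 to 11.44), microglia (4 genes, 9.56 to 9.75 and 9.16 to 9.36) and blood (2 genes, 5.96 to 6.0 and 5.32 to 5.73). They overlapped for astrocytes (4 genes, 11.44 to 11.46 and 11.33 to 11.48), meninges (5 genes, 7.91 to 8.28 and 8.21 to 8.65) and striatum (3 genes, 7.47 to 7.63 and 7.58 to 7.68). At the brightest probe set, 1 excitatory neuron, 2 astrocyte, 2 microglia and 1 blood marker passed the test, where 1.77% of all probe sets passed. The directions of these marker calls are not reported here. The part of these cell types in the decay factor values was not tested. Both genotypes held both sexes: the mean of 9 Y-linked probe sets was 3.89 in wild type replicate 1 and 3.93 in knockout replicate 3, and 5.90 to 6.00 in the other arrays. Htra2 itself fell by 2.27 on the log2 scale at 1 probe set (adjusted p = 0.00227) and rose by 1.11 at the other (adjusted p = 0.00169). The place of these probes with respect to the deletion was not analysed here.

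The factors that work beside the core set were counted by gene. Of 40 measured partner genes out of 46 listed, 2 rose, 0 fell and 38 did not pass at any probe set, which is 5% higher where 1.64% of all named genes were called higher and 1.67% lower. The median change at the brightest probe set of each partner was 0.04. The calls rest on few arrays: 0 partners were called when any 1 array was left out other than knockout replicate 2, without which 2 were called.

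Rbm8a, which encodes the exon junction subunit Y14, was 1 of the 2. It read 9.81, 9.82 and 9.80 in wild type and 10.29, 10.16 and 10.40 in the knockout at 1418119_at, with all knockout arrays higher. It rose there by 0.48 ± 0.08 (1.39-fold, adjusted p = 0.0351; 0.183 without wild type replicate 2). Its other probe set overlapped between groups and changed by -0.28 ± 0.18 (adjusted p = 0.488). It was the 1 of 7 measured exon junction genes past the test.

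Ppp2ca, a catalytic subunit of the phosphatase PP2A that dephosphorylates Upf1 among many proteins, rose at 1 of its 3 probe sets. There it read 8.16, 8.18 and 8.36 in wild type and 8.76, 8.66 and 8.97 in the knockout, a rise of 0.56 ± 0.10 (adjusted p = 0.0407; 0.205 without wild type replicate 2). Its brightest probe set changed by -0.14 ± 0.08 and the third by 0.08 ± 0.11. No other gene of the Smg1 complex and phosphorylation cycle passed among 7 measured.

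No gene passed among 4 measured cap-binding genes, 5 of translation termination and poly(A) binding, 14 of decapping and decay and 3 related RNA-binding factors. Ncbp2, the small subunit of the nuclear cap-binding complex, came nearest. All 3 of its probe sets lay lower in the knockout with groups apart, as 23.2% of all probe sets had them in either direction. Their changes were -0.49 ± 0.12, -0.39 ± 0.12 and -0.31 ± 0.09 (adjusted p = 0.0836, 0.152 and 0.144). They read the same gene on the same arrays, so they are not independent results. Ncbp1, the partner of Ncbp2, changed by 0.09 ± 0.09. The decapping factor Dcp1a changed by -0.39 ± 0.12 (adjusted p = 0.147), -0.23 ± 0.09 and -0.13 ± 0.11 at its 3 probe sets, and Cnot8, a deadenylase, by 0.25 ± 0.08 (adjusted p = 0.149) and 0.14 ± 0.07. At the probe set with the smallest p, the termination factors Gspt2 and Etf1 had estimates of -0.20 ± 0.09 and 0.16 ± 0.07 (adjusted p = 0.325 and 0.338). The other Gspt2 probe set, its brightest, gave -0.11, and the other 5 of Etf1 gave -0.04 to 0.09. The RNA-binding proteins Stau2 and Stau1 had estimates of -0.16 ± 0.09 and -0.15 ± 0.09 chosen in the same way (adjusted p = 0.473 and 0.477), with -0.09 and -0.05 at the other Stau2 probe sets and -0.01 at both others of Stau1.

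Known substrates of the pathway held larger changes. Of 25 measured substrates out of 26 listed, 10 rose, 1 fell and 14 did not pass, so 40.0% were called higher, beside 1.64% of all named genes called higher and 1.67% called lower. The median change at the brightest probe set of each substrate was 0.19. In all, 5 were called without any 1 of the wild type replicates or without knockout replicate 3, 8 without knockout replicate 1 and 13 without knockout replicate 2. The list was drawn up with earlier results of these arrays known and holds stress genes that other pathways also control.

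All 4 listed hosts of small nucleolar RNAs rose, where 1.64% of all named genes were called higher. These 4 were picked with earlier results of these arrays known, and other hosts are not reported here. The spliced transcripts of the 4 carry short reading frames and are degraded by the pathway. Snhg12 read 9.44, 9.52 and 9.50 in wild type and 10.82, 10.70 and 10.92 in the knockout, and rose by 1.33 ± 0.08 (adjusted p = 0.00141). Snhg1 rose by 1.38 ± 0.10 (adjusted p = 0.00173) at its brightest probe set and at 3 of 5, and Gas5 by 1.11 ± 0.08 (adjusted p = 0.00169) at its brightest and at 2 of 4. The other Gas5 probe sets changed by -0.31 ± 0.14 and 0.04 ± 0.15, and Zfas1 rose by 0.63 ± 0.08 (adjusted p = 0.0167; 0.113 without wild type replicate 2).

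Of 11 stress genes 5 rose and 0 fell: Ddit3 by 1.86 ± 0.07, Chac1 by 1.20 ± 0.11, Slc7a11 by 0.67 ± 0.08, Trib3 by 0.58 ± 0.08 and Atf3 by 0.52 ± 0.09 (adjusted p = 7.63e-05, 0.00507, 0.0139, 0.0196 and 0.0317). Without wild type replicate 2 the last 3 did not pass (adjusted p = 0.0839, 0.131 and 0.180). A second, dimmer probe set of Ddit3 gave -0.01 ± 0.12. The call of Slc7a11 came from the dimmer of its 2 probe sets, and the brightest gave 0.00 ± 0.14. Atf3 was named after its value was seen.

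Of 7 splicing factor genes whose poison exons lead to decay, Srsf6 rose by 0.53 ± 0.09 at 1 of 4 probe sets (adjusted p = 0.0304; 0.173 without wild type replicate 2). The others gave 0.27 ± 0.08, 0.32 ± 0.11 and -0.23 ± 0.08 (adjusted p = 0.149, 0.198 and 0.200). Each had groups apart, as had 23.2% of all probe sets. Of 3 neuronal transcripts, Arc, a synaptic gene whose mRNA is decayed after translation, fell by 1.71 ± 0.33 (adjusted p = 0.0482; 0.213 without wild type replicate 2).

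**Figure D3:**
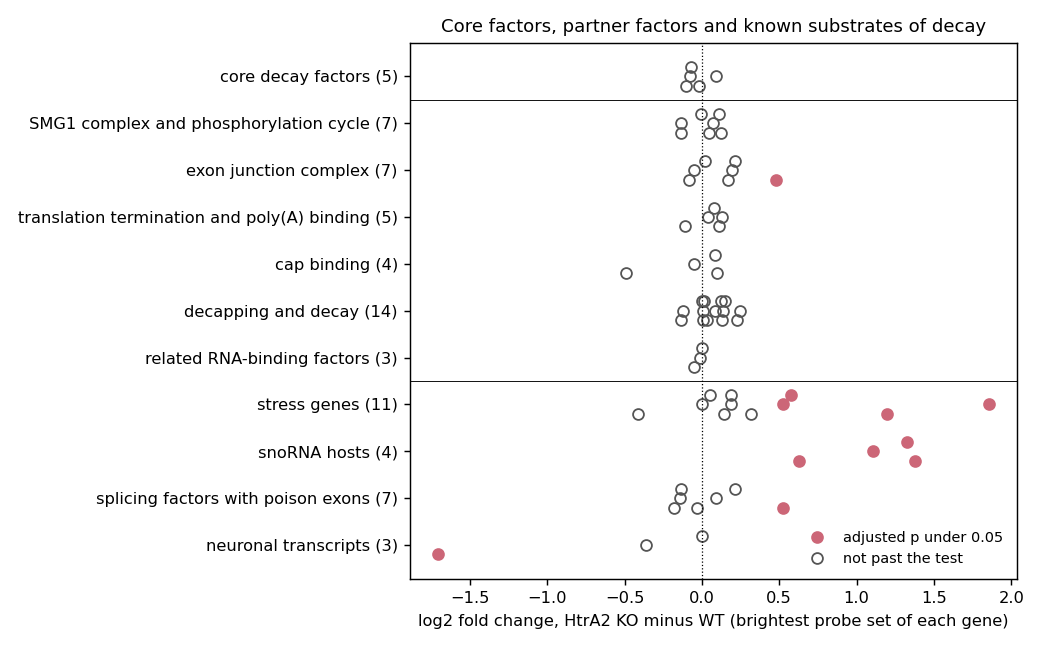
Log2 fold change, knockout minus wild type, at the brightest probe set of each gene, for the 5 core factors, the partner genes by role and the known substrates by kind; filled red circles passed at an adjusted p under 0.05 and open circles did not, and numbers in brackets count genes. The core factors lie between -0.10 and 0.09. The substrates as a whole lie between -1.71 and 1.86, and among them the 4 listed small nucleolar RNA hosts lie between 0.63 and 1.38.

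The promoters of the decay factors were also compared by their letters with those of the stress genes. Promoters from RefSeq (GRCm38.p6), 250 bases before to 50 after each gene's start, were found for all 7 decay factors, Upf3a and Upf3b included, with 1 promoter each. They were searched on both strands for TGATGNAAN, the composite element that ATF4 and CHOP bind, which 3.95% of 32851 promoters of this length hold. None of the 7 decay factors held it (0 of 7), and Atf3, Chac1, Slc7a11 and Trib3 did, 4 of the 25 substrates with a promoter in the table. Ddit3, the stress gene that rose most, did not. No test was made of these counts. Other motifs were searched in the same way. CACGTG (an E-box), TGACGTCA (CRE) and CCGGAAG (ETS) were in 0 of 7 decay factor promoters and in 7.15%, 1.79% and 8.86% of all promoters. TGACG, the half-site that lies within the CRE, and AAGATGGCG (YY1) were each in 1, that of Upf3b, and in 20.8% and 1.40% of all. GCGCATGCG (NRF1) was in 1, that of Upf1, and in 1.75% of all. A match is a description of letters, and its absence from a window says nothing of the factor.

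The windows around the matches in the 3 stress genes with a match before the start are shown because these genes rose. The 100 bases before the start of Smg1, the kinase whose probe sets varied most, are shown for comparison. Sequences read 5′ to 3′ on the gene's strand, and capitals mark the element or its reverse complement. They lie at chr2:119351028-119351076 (plus strand) for Chac1, at chr1:191183416-191183464 (minus) for Atf3, at chr3:50443651-50443699 (minus) for Slc7a11 and at chr7:118243638-118243737 (minus) for Smg1.
Chac1: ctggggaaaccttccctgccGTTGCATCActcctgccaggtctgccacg
Atf3: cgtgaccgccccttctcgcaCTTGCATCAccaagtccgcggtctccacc
Slc7a11: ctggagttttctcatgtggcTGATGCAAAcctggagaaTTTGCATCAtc
Smg1: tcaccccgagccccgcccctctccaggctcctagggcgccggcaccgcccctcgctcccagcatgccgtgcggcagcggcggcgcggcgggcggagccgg
Slc7a11 holds the element a second time within this window, in the opposite orientation, near its end. In Trib3 the match lies after the start.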

How the data were processed

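Biotin-labelled cRNA from 3 wild type and 3 knockout samples was hybridised to Affymetrix arrays, per the labels' protocols. The authors deposited log2 values; RMA is named in the submitters' processing notes, and base 2 is an assumption that their size supports. The medians of the arrays were 6.40 to 6.46. Of 45101 probe sets, 64 controls were left out. The deposited arrays give no counts, so their number limits the precision.

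Probe sets were named from the platform annotation. Fits used limma 3.58.1 in R 4.3.3 (lmFit and eBayes), with group as the only term and adjustment over all 45037 probe sets, and likewise over 16752 within-gene differences. On simulated data of 45037 probe sets 70 of 100 true changes of 1 log2 unit were found, as were 25 of 100 true changes of 0.5. There were 97 calls, 2 of them false. On the 16752 simulated differences 40 of 78 true changes of 1 were found, and 5 of 46 calls were false. The simulated noise was independent for each probe set and array. Deviations shared across an array were not simulated, so these rates need not hold for the real arrays.

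All members were named. Of each partner role and substrate kind, the called genes were named, up to 4 by smallest p, or 2 where none passed. A gene counted as called if 1 probe set naming it alone passed. The members and lists were chosen with earlier results of these data known, and the motifs after the values were seen. The labels do not state that the 3 arrays of a genotype are 3 separate mice; Y-linked levels show both sexes, so more than 1 mouse, in each genotype. Alternatives were other moderation, normalization, filters, thresholds, weights, a replicate block, a Y-linked covariate and leaving out arrays.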

Additional observations from a re-analysis of the deposited data

How the results depend on the processing

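The count of decay factor probe sets past the test stayed 0 under the 15 alternatives that could have raised it; the dim filter kept 5 of the 12. The count over all probe sets (796) was 1770 with limma-trend and robust moderation, 1806 with the dim filter, 4205 with array weights, 441 with Y-linked expression as a covariate, 2035 and 79 at adjusted p under 0.1 and 0.01, and 65 to 3037 when 1 array was left out. Leaving out both arrays numbered 2, chosen after the values were seen, gave 314. With the replicate block it was 154, with 0 partners and 5 substrates called; the numbers are not said to pair animals, and same-numbered arrays deviated with correlations of -0.196, -0.0405 and -0.169. Called partner genes (2) were 4 with array weights, 0 with the Y-linked covariate, at 0.01 and without both arrays numbered 2, 1 at the brightest probe set, and 0 to 2 with 1 array left out. Called substrates (11) were 16 with array weights, 5 at 0.01, 7 without both arrays numbered 2 and 5 to 13 with 1 left out. Within-gene differences past the test (28) were 2258 with array weights, 122 and 2 at 0.1 and 0.01, 7 without both arrays numbered 2 and 2 to 215 with 1 left out; the cause was not tested. Of 132 decay factor fold changes under the 11 settings that can move one, 16 changed sign, all at uncalled probe sets. With 1 array left out, Upf1 ranged from -0.114 to 0.129, Smg1 1428539_at from -0.149 to 0.050, Smg6 1433911_at from -0.144 to 0.005 and 1445418_at from -0.055 to 0.095, Upf2 1445777_at from -0.067 to 0.051 and Smg5 1451797_at from -0.052 to 0.015. Array weights gave 0.092 for Upf1 and 0.028 for Smg1 1428539_at. Without both arrays numbered 2, Upf1, Smg1 1428539_at and Smg6 1433911_at stood at 0.111, 0.048 and 0.028. Upf2 1445777_at moved to 0.0013 with further quantile normalization and 0.00048 with median centring.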
